A study of Homo sapiens with 36 samples.

Results

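Constitutive H3K27ac regions are stretches of chromatin whose H3K27ac signal stayed within a narrow band in 6 H3K27ac comparisons of the study. They were found by starting from the regions listed for untreated POS against NEG cells. Each had to have a counterpart overlapping it by at least 50%, reciprocally, in all the other H3K27ac tables. The log2 ratio of group means (CPM + 0.5, where CPM scales each count to the total of the library's listed counts) had to lie between -0.75 and 0.75 in all 6 tables. The rule kept 1633 of 57075 listed regions (2.86%), or 16.8% of the 9735 regions matched in all 6 tables. Those 6 sets of ratios chose the regions, so every value from those comparisons, calls by a test included, is given below as a description and supports nothing. "Constitutive" is the name of this rule and no more: the regions are not shown to be even in comparisons that the rule did not make, and several of those are given here.

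The data come from SUM-229PE, an established line of triple-negative breast cancer that was derived from a pleural effusion, profiled by chromatin immunoprecipitation and sequencing (ChIP-seq). Sorted subpopulations were studied, named POS (EpCAM+ CD49f+) and NEG (EpCAM- CD49f-) after a pair of surface proteins used for sorting. H3K27ac was profiled with DMSO vehicle (3 POS and 2 NEG libraries), after 24 hours of the MEK inhibitor trametinib at 30 nM (3 POS, 2 NEG), and on day 14 of chronic trametinib at 10 nM with its day 0, which the tables name as a DMSO control (2 libraries each for POS and NEG). It was also profiled in POSR1 and POSR2 (2 libraries each), and JUNB was profiled in DMSO-treated POS and NEG cells (2 libraries each). POSR1 and POSR2 are labelled only as a POSR subpopulation, with no treatment given. All groups share 1 line, and the origin of the replicates is not stated, so a p-value weighs a difference only against the spread between these libraries, which may be technical. No annotation of the files' build was used, so the sorted identities were not checked against marker genes.

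H3K27ac, acetylation of lysine 27 on histone H3, is laid down by the acetyltransferases p300 and CBP at active promoters and enhancers, and its level follows the activity of the element. JUNB is a subunit of AP-1, a dimeric transcription factor that binds many enhancers in epithelial and mesenchymal cells. AP-1 subunits are induced by signalling through the kinases MEK and ERK, the pathway that trametinib blocks.

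H3K27ac libraries held 1861227 to 9212006 counts in their listed regions, and the median constitutive region had 70 to 284 counts in a library. JUNB libraries held 4884516 to 8947351 counts, of which 2.29% to 2.45% fell in sites within constitutive regions. Replicate pairs differed by more than sampling noise over all features (chi-square per degree of freedom 1.10 to 4.77), so none was treated as 1 library deposited more than once. The same POS DMSO libraries enter 3 of the tables and the same NEG DMSO libraries enter 2, so the comparisons used by the rule share controls. Where a library was counted in several tables, the median ratio of its counts for a constitutive region was 1. The 5th percentile was as low as 0.927 and the 95th as high as 1.075, since the intervals shift slightly between tables. Regions are 1001 bases wide and JUNB sites 201 bases wide, with coordinates in hg19 as the files give them.

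POS against NEG and POS at day 14 removed the most regions. Of the 9735 matched regions, 54.4% were within the limit for POS against NEG and 46.2% for POS at day 14 against day 0. The share was 74.7% for acute trametinib in POS, 79.3% for acute trametinib in NEG, 77.8% for NEG at day 14 and 75.6% for POSR against POS. A further 2667 regions went past the limit in a single table, 1064 of them in POS against NEG and 955 in POS at day 14. At the other end, 127 regions were past it in all 6. Within the limit, the median ratio of constitutive regions was -0.16 for POS against NEG, -0.04 and 0.06 for acute trametinib in POS and NEG, 0.02 and 0.03 for day 14 in POS and NEG, and 0.15 for POSR against POS. The medians of all matched regions were -0.24, -0.17, -0.04, -0.54, -0.00097 and -0.06 in the same order, so the constitutive regions sat farthest from the bulk of matched regions at POS day 14.

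**Figure D1:**
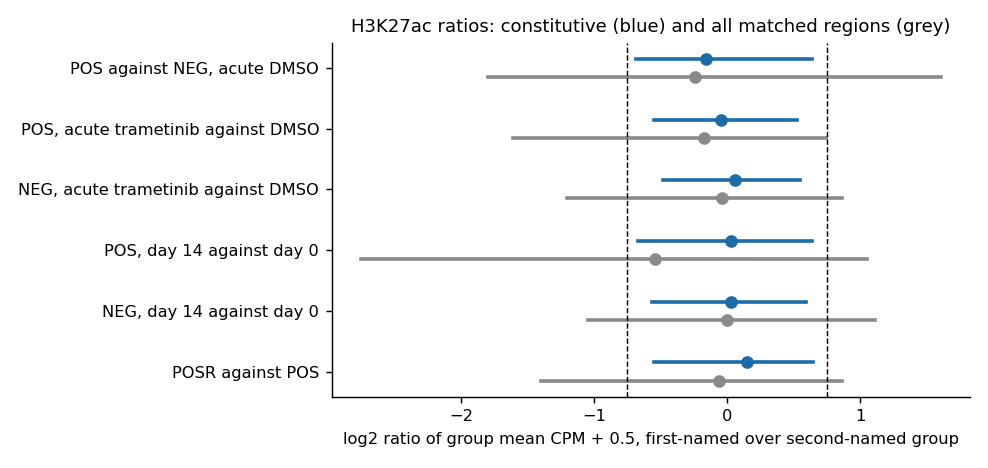
Log2 ratio of group mean CPM + 0.5 in each of the 6 H3K27ac comparisons, for the 1633 constitutive regions (blue) and all 9735 matched regions (grey); points are medians, lines run from the 5th to the 95th percentile and dashed lines mark the limit of 0.75. The grey range is widest for POS at day 14, from -2.75 to 1.05, where the blue range is -0.67 to 0.64, as the rule requires.

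The limit cuts through a continuous spread. The 3 members closest to it lay at chr1:67446843-67447844, chr3:15106155-15107156 and chr12:49658598-49659599, with levels of 12.8, 20.2 and 112 CPM. The 3 matched regions closest to it on the outside lay at chr1:174758035-174759036, chr2:28578436-28579437 and chr1:60195974-60196975, with levels of 21.5, 17.3 and 66.4 CPM. The levels of the regions inside and outside overlapped.

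The comparisons of the rule were also fitted with edgeR's quasi-likelihood test over all regions of each table, with Benjamini-Hochberg adjustment and a threshold of 0.05. For POS against NEG, 640 constitutive regions (39.2%) were called, where 76.5% of all tested regions were. The counts were 533 (32.6%) against 52.7% for acute trametinib in POS, 506 (31.0%) against 36.5% for acute trametinib in NEG, 825 (50.5%) against 77.8% for POS at day 14, 494 (30.3%) against 48.6% for NEG at day 14, and 481 (29.5%) against 36.1% for POSR. As the rule fixed these sizes, nothing is read from the shares.

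Constitutive regions were among the stronger H3K27ac regions of the table. Their median level, the TMM-scaled CPM averaged over the 5 DMSO libraries of POS and NEG, was 28.1 (interquartile range 17.4 to 52.1), against 9.76 for all listed regions. Other matched regions had levels of the same order: the 3658 matched regions that were even in POS against NEG but past the limit in another table had a median of 24.7, and the 4444 that were uneven in POS against NEG had one of 27.04. With all listed regions divided into 5 equal groups by level, 4, 38, 163, 511 and 917 regions were constitutive from the lowest group to the highest, which is 0.035% of the lowest group and 8.03% of the highest. The matched regions among which the rule could choose numbered 29, 222, 1119, 3229 and 5136 in the same groups. Of those, 13.8%, 17.1%, 14.6%, 15.8% and 17.9% were constitutive, so the rise with level lay almost wholly in which regions were matched. The members themselves ran from 3.25 to 248 CPM, with 102 below 10 CPM and 110 at 100 CPM or more.

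To compare libraries from different tables, counts were also scaled to the library's total in the 9735 matched regions, called matched CPM below. On this scale the median constitutive region had 80.4 to 94.9 matched CPM in 20 of the libraries and 112 and 113 in the POS day 14 libraries. The constitutive regions took 18.8% to 21.9% of matched counts in those 20 libraries and 26.3% in each POS day 14 library. The median of the other matched regions was 61.1 to 75.1 in the 20 libraries and 46.7 and 47.3 at POS day 14. The scale divides by the total of both sets, so a higher share of one is a lower share of the other. The rule also left out regions past the limit at POS day 14, where the median ratio of matched regions was -0.54. The high POS day 14 value of constitutive regions is therefore given as a description, and nothing is read from it. Because these are bulk libraries, fewer cells carrying the mark and less mark per cell cannot be told apart.

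**Figure D2:**
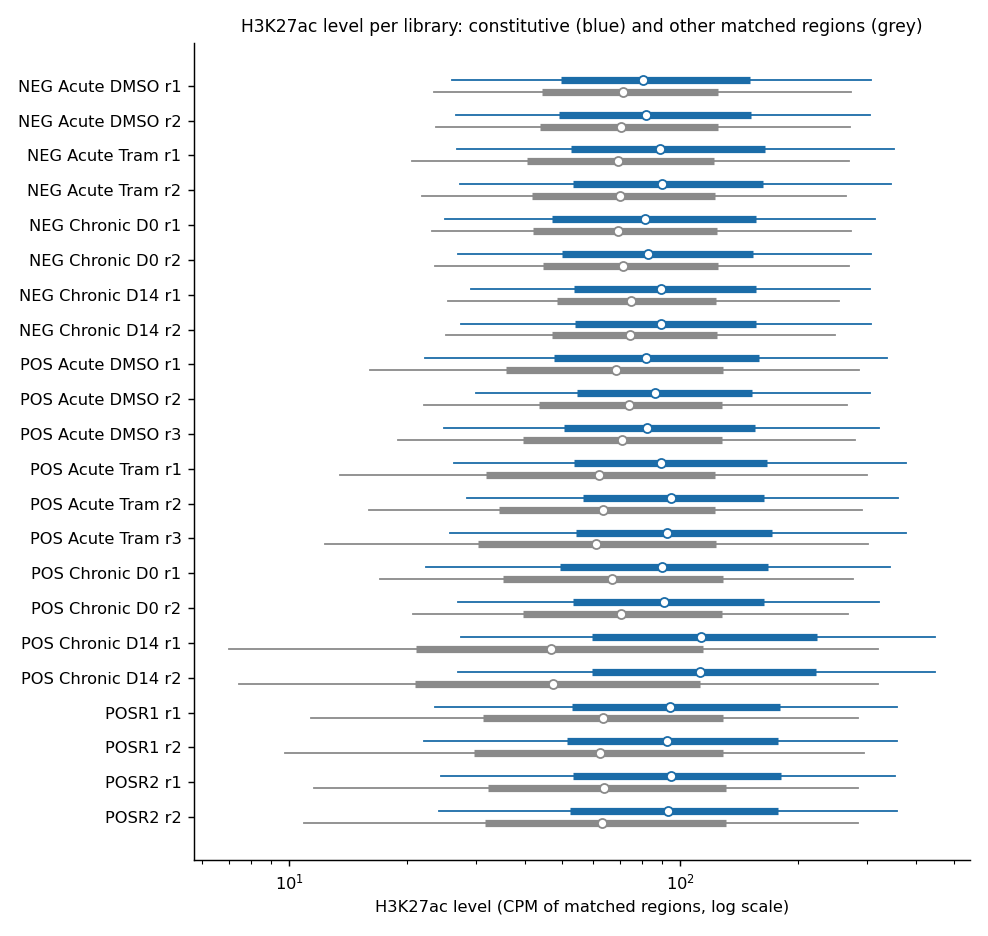
H3K27ac level in matched CPM (log axis) for each of the 22 libraries, in the 1633 constitutive regions (blue) and the 8102 other matched regions (grey); open circles are medians, thick bars interquartile ranges and thin lines the 5th to 95th percentile. Blue ranges change little between libraries apart from POS day 14, where the median is 112 and 113 and the grey median is 46.7 and 47.3.

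Across the 10 H3K27ac groups, the highest group mean of a constitutive region was a median of 2.17 times its lowest (5th to 95th percentile 1.53 to 3.53, highest 6.47). For the other matched regions the median was 4.498 times. In all, 601 constitutive regions (36.8%) kept within 2-fold over the 10 groups, against 2.01% of the others. In matched CPM, POS at day 14 was the highest group for 639 of the 1633 constitutive regions. The same count was not made for the other matched regions. It rests on the scale on which constitutive regions were high in the POS day 14 libraries. By column sums, the POS day 14 against day 0 ratio was above 0 in 835 constitutive regions and below 0 in 798. The rank order of the constitutive regions was much alike between groups, with a Spearman correlation of 0.801 to 0.985 (median 0.891) over the 45 pairs of groups. For the other matched regions it was 0.186 to 0.975 (median 0.451). These correlations run across regions of the same libraries, the rule bears on some of these pairs, and they are given as a description.

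The 6 strongest constitutive regions were at chr8:48266091-48267092 (248 CPM), chr3:188665763-188666764 (241 CPM), chr1:145008936-145009937 (214 CPM), chr8:108235465-108236466 (187 CPM), chr8:76235823-76236824 (184 CPM) and chr17:43248192-43249193 (176 CPM). Each held 1 or 2 JUNB sites. At chr8:48266091-48267092 the level was lowest in a NEG day 14 library (520 matched CPM), had a median of 737 over the 22 libraries and was highest in a POS acute trametinib library (984). Its group means ran from 542 ± 30.4 (SD, n = 2) in NEG day 14 to 964 ± 19.4 (SD, n = 3) in POS acute trametinib. These groups did not overlap, but they were picked as the lowest and highest of 10. Their difference was not tested.

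The most even members, among those at or above the median level, were led by chr3:129117903-129118904, with 61.9 CPM and a largest absolute log2 ratio of 0.18. Its 3 POS DMSO libraries read 185, 183 and 199 matched CPM and its NEG DMSO libraries 169 and 168. The POS acute trametinib libraries read 174, 187 and 193, and the NEG ones 198 and 199. The lowest values were in POSR2 (162 and 162) and the highest at POS day 14 (298 and 289), so a region that was even by column sums still had its POS day 14 pair apart from the rest on this scale. The next most even were chr10:103489137-103490138 (0.19), chr1:149910792-149911793 (0.21), chr5:103415718-103416719 (0.23), chr6:100644145-100645146 (0.24) and chr5:84959071-84960072 (0.24).

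Most constitutive regions overlapped a JUNB site, and the share was lower than among the other matched regions. With a site assigned to a region when at least 50% of it lay inside, 1472 of 1633 held a site (90.1%, Wilson 95% interval 88.6 to 91.5), against 93.9% of regions even in POS against NEG only, 93.8% of those uneven in POS against NEG, and 77.7% of all listed regions. These intervals cover counting error only, and neighbouring regions are not independent. Several sites in a region were common: 378 constitutive regions (23.1%) held 2 or more sites and 39 held 3 or more, against 19.7% and 19 regions among the 3658 even in POS against NEG only. In total 1890 JUNB sites lay in constitutive regions. The highest site of a constitutive region was centred a median of 220.5 bases from the region's centre, against 233 bases in the regions even in POS against NEG only.

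The median JUNB level at those sites was lower than in the other matched regions and near that of all listed regions. The strongest JUNB site of a constitutive region had a median level of 6.37 CPM (interquartile range 3.38 to 18.6; TMM-scaled, mean of the 4 JUNB libraries). It was 13.1 CPM in regions even in POS against NEG only, 11.3 CPM in those uneven in POS against NEG and 6.28 CPM over all listed regions. The order was alike in each library. The medians of constitutive regions were 5.92 and 6.32 CPM in the POS libraries and 5.99 and 6.80 CPM in the NEG libraries, against 12.1 and 10.7 CPM and 13.3 and 14.1 CPM in the regions even in POS against NEG only. A site below 5 CPM was the strongest in 42.0% of constitutive regions that had one, against 22.3% of the regions even in POS against NEG only, and one of 20 CPM or more in 23.7% against 34.3%. With the larger of the POS and NEG means in place of the mean over all 4 libraries, the medians were 7.46 CPM and 15.8 CPM. Over all listed regions with a site, one below 5 CPM was the strongest in 42.2% and one of 20 CPM or more in 16.1%. Sites of 20 CPM or more were thus more frequent in constitutive regions than over all listed regions.

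Over the matched regions, the JUNB median was higher where H3K27ac was less even. With the largest absolute log2 ratio of a region under 0.5, its JUNB median was 6.62 CPM. It was 6.29 CPM from 0.5 to 0.75, 7.80 CPM from 0.75 to 1, 10.0 CPM from 1 to 1.5, 13.2 CPM from 1.5 to 2 and 16.3 CPM at 2 or more. The first 2 of these classes are the constitutive regions, and their medians were alike. The share with a JUNB site was 91.8%, 89.6%, 90.9%, 93.1%, 94.96% and 96.0% in the same order.

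**Figure D3:**
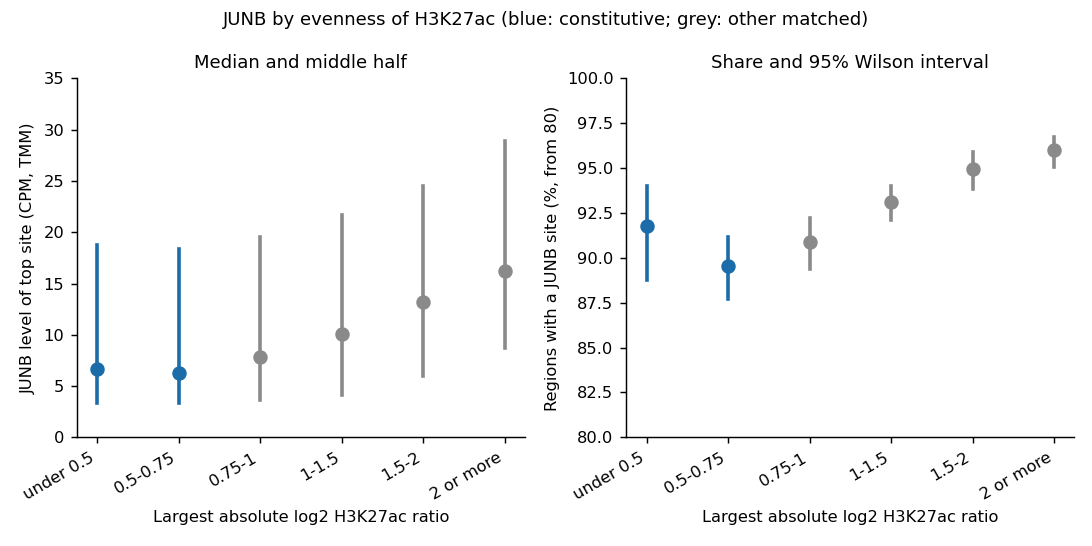
JUNB against the largest absolute log2 H3K27ac ratio of a region over the 6 comparisons. On the left, the level of the region's strongest JUNB site in TMM-scaled CPM (point, median; line, interquartile range); on the right, the percentage of regions with a site and its 95% Wilson interval, on an axis that starts at 80. Medians lie at 6.62 and 6.29 CPM for constitutive regions (blue) and reach 16.3 CPM in the least even matched regions (grey).

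H3K27ac level was compared as well, since JUNB level went up with it. Matched regions were divided into 5 equal groups by H3K27ac level, and constitutive regions had the lower JUNB median in each. From the lowest to the highest group the median of constitutive regions was 4.39, 3.85, 5.22, 6.32 and 16.1 CPM. In regions even in POS against NEG only it was 6.88, 10.7, 13.4, 16.1 and 26.6 CPM. The share with a JUNB site was 73.7% against 87.4% in the lowest group, and in the highest the order turned, with 98.1% against 96.3%. No test was made of these differences, which compare regions within the same libraries.

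**Figure D4:**
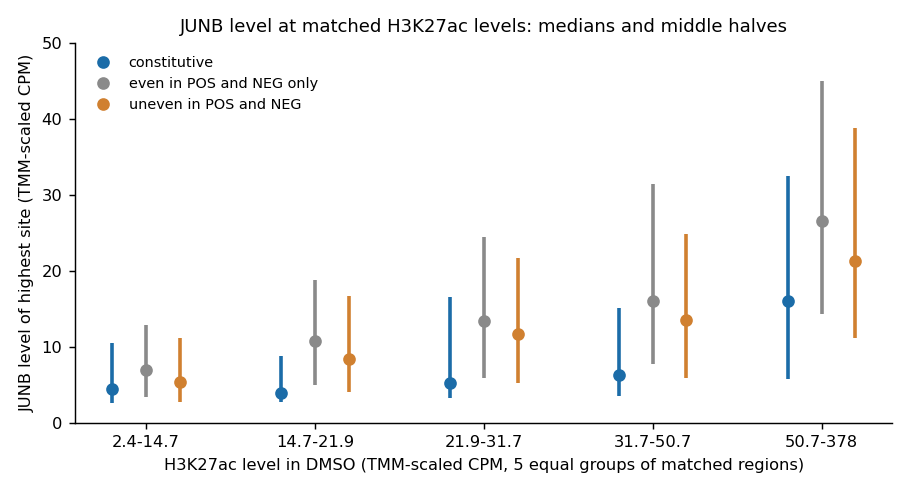
JUNB level of the strongest site (TMM-scaled CPM; point, median; line, interquartile range) by H3K27ac level, in 5 equal groups of matched regions, for constitutive regions (blue), regions even in POS against NEG only (grey) and regions uneven in POS against NEG (orange). The blue median is the lowest of the 3 in every group, at 4.39 CPM in the first and 16.1 CPM in the last.

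The 161 constitutive regions with no listed JUNB site had a median H3K27ac level of 15.0 CPM, against 30.3 CPM for those with one. The strongest of them were chr1:172291792-172292793 (127 CPM), chr3:188065890-188066891 (93.9 CPM) and chr1:225923501-225924502 (76.0 CPM). At the first of these the level was lowest in a NEG day 14 library (309 matched CPM), had a median of 396 and was highest in a POS day 14 library (615). At the other end, chr3:188740489-188741490 held 4 JUNB sites, and chr8:79026942-79027943 (159 CPM) and chr3:149375745-149376746 (121 CPM) held 3 each. The strongest JUNB site in these 3 regions had 2.58, 9.60 and 7.97 CPM, below, above and above the median of constitutive regions.

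JUNB was then compared between POS and NEG, a comparison that the rule did not use. Sites were tested with edgeR's quasi-likelihood test over all 141580 sites that passed a low-count filter, and 57.9% of them were called. Of the 1890 sites in constitutive regions 1875 passed the filter, and 443 of these (23.6%) were called. By direction, 231 were higher in POS (12.3%, where 28.5% of all tested sites were) and 212 were higher in NEG (11.3%, where 29.4% were). Changes of 2-fold or more were called at 97 sites toward POS (25.1% of all tested sites were) and at 92 toward NEG (25.5% of all were). The share called was 38.6% in regions even in POS against NEG only and 57.3% in those uneven in POS against NEG, and the median absolute log2 fold change was 0.38 in constitutive regions, 0.48 and 0.81 in those, and 1.06 over all sites. DESeq2 called 234 sites (12.4%, where it called 39.6% of all sites). Members chosen on TMM-scaled CPM gave a different direction split, with 184 sites higher in POS and 264 higher in NEG. On data simulated for this comparison with 200 changed sites, the test recovered 16.3% of 2-fold and 80.4% of 4-fold changes. Far fewer sites changed there than were called here, which makes the adjustment stricter, so these shares do not carry over. Of the 1432 sites in constitutive regions that were not called, 15 had a fold change of 2-fold or more. Sites not called had a median level of 4.37 CPM, against 10.0 CPM where POS was higher and 12.0 CPM where NEG was higher. The strongest sites of constitutive regions were also weaker than those of regions even in POS against NEG only (medians 6.37 and 13.1 CPM). The shares called were not compared at equal JUNB level, so a lower share is not read as steadier JUNB.

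Several sites inside constitutive regions differed strongly between the subpopulations. Among called sites at or above the median level of all tested sites and with no overlap between POS and NEG, the largest change toward NEG was at chr15:63188243-63188444, which read 4.297 and 5.173 CPM in POS and 41.1 and 29.3 CPM in NEG (log2 fold change -2.92 ± 0.27 SE, edgeR adjusted p = 3.21e-25). Its H3K27ac region, chr15:63188177-63189178, had a POS against NEG log2 ratio of 0.06. The rule bounded that ratio, so nothing is read from its evenness. In the day 0 libraries the region's H3K27ac log2 fold change of POS over NEG was 0.25 ± 0.11 SE (edgeR adjusted p = 0.031).

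Next toward NEG came chr16:66653123-66653324, with 1.86 and 1.15 CPM in POS and 12.3 and 9.42 CPM in NEG (log2 fold change -2.79 ± 0.35 SE). The site chr3:36949611-36949812 read 0.929 and 3.26 CPM in POS and 9.98 and 12.4 CPM in NEG, and chr10:91275375-91275576 read 4.65 and 3.45 CPM against 23.4 and 25.3 CPM. At chr15:35292250-35292451 the values were 2.67 and 2.87 CPM in POS and 11.4 and 16.6 CPM in NEG. Values that do not overlap were a condition for naming these sites. The H3K27ac ratio of their regions was -0.26, 0.10, 0.36 and -0.22.

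Toward POS, the largest change among such sites was at chr2:174454439-174454640, with 21.3 and 17.2 CPM in POS and 4.11 and 2.79 CPM in NEG (log2 fold change 2.44 ± 0.29 SE, edgeR adjusted p = 3.43e-16). The site chr3:170407156-170407357 read 27.2 and 21.5 CPM in POS and 3.76 and 5.58 CPM in NEG, and chr15:63641400-63641601 read 14.6 and 12.1 CPM against 3.52 and 1.40 CPM. The other two were chr6:37071142-37071343, with 11.4 and 10.5 CPM against 2.35 and 2.62 CPM, and chr7:44679448-44679649, with 7.08 and 9.96 CPM against 1.88 and 1.92 CPM. The H3K27ac ratio of their regions was -0.65, 0.73, 0.47, 0.46 and 0.43, so 1 of the 5 went the other way from JUNB and 1 of the rest lay close to the limit.

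Sites of 1 region could go in opposite directions. The region chr2:174454477-174455478 held the site described above, which was higher in POS, and a stronger one at chr2:174455175-174455376. The stronger site read 43.9 and 47.3 CPM in POS and 87.5 and 115 CPM in NEG (log2 fold change -1.15 ± 0.23 SE). The region's own H3K27ac ratio was -0.65. In all, 410 constitutive regions held a called JUNB site and 12 held called sites of both directions.

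The H3K27ac ratios beside the JUNB calls are the rule's own, and their zero depends on the scaling. By column sums, regions around sites higher in POS had a median POS against NEG H3K27ac log2 ratio of 0.23, with 157 of 231 sites in a region above 0. Around sites higher in NEG the median was -0.26, with 53 of 212 above 0. Around sites not called it was -0.21, with 502 of 1432 above 0. With the TMM scaling of the edgeR fit the medians were 0.40, -0.10 and -0.04, with 187, 87 and 677 above 0. On both scales the median around sites higher in POS stood above the other two, while sites higher in NEG and sites not called were close to each other. Over the 1468 constitutive regions with a tested site, the ratio and the log2 fold change of the strongest JUNB site had a correlation of r = 0.304. It is a correlation across regions of the same libraries and is given as a description.

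POSR2 was compared with POSR1, which the rule had pooled. The rule bounded the pooled mean against POS, which also limits how far these groups could part, so the shares below are given as a description. The test used all 53524 regions of the POSR table that passed the filter, with POS kept as a further group for the spread, and 40.5% of them were called. Among constitutive regions 364 of 1633 (22.3%) were called, 139 higher in POSR2 (8.51%, where 21.2% of all were) and 225 lower (13.8%, where 19.3% of all were). The share was 40.2% among regions even in POS against NEG only. A change of 2-fold or more was called in 47 constitutive regions (2.88%, against 17.7% of all tested regions), and 92.9% had a log2 fold change within 0.75, against 71.1% of all tested regions. With 1 POSR1 or POSR2 library left out the number called was 197 to 237 (12.1% to 14.5%), the lowest without POSR2 replicate 1, and the share over all regions was then 27.1% to 30.5%. Leaving out any 1 of the 4 libraries lowered the count by over 1.5 times.

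Among called constitutive regions whose POSR1 and POSR2 values did not overlap, the largest rise in POSR2 was at chr13:30009174-30010175. It read 3.51 and 4.06 CPM in POSR1, 19.4 and 17.3 CPM in POSR2, and 13.4, 12.0 and 8.32 CPM in POS (log2 fold change of POSR2 over POSR1 2.27 ± 0.20 SE, edgeR adjusted p = 1.78e-26). At chr8:126289831-126290832 the values were 36.5 and 37.1 CPM in POSR1, 169 and 172 CPM in POSR2, and 143, 115 and 130 CPM in POS. The region chr12:111077161-111078162 read 3.23 and 2.99 CPM, 11.4 and 10.9 CPM, and 9.16, 11.6 and 9.53 CPM. At the first and second of these, POSR1 lay below every POS library and POSR2 above every one. At chr12:111077161-111078162 POSR1 lay below POS, and POSR2 overlapped it. The rule held the pooled POSR mean near POS, so these positions are given as a description.

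Lower in POSR2 was chr21:33850493-33851494, with 11.5 and 9.43 CPM in POSR1, 2.87 and 2.37 CPM in POSR2, and 6.75, 5.89 and 5.90 CPM in POS (log2 fold change -1.98 ± 0.27 SE, edgeR adjusted p = 6.52e-12). At chr6:159052596-159053597 POSR1 read 16.3 and 18.4 CPM and POSR2 5.98 and 4.07 CPM, with POS at 11.7, 13.1 and 12.1 CPM. The region chr14:92620162-92621163 read 8.29 and 8.72 CPM in POSR1, 2.39 and 2.89 CPM in POSR2, and 7.47, 6.08 and 6.50 CPM in POS. In these 3 the POS libraries lay between the other groups. With the pooled POSR mean bounded against POS, the rule largely set this position, and nothing is read from it.

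The day 0 libraries give POS against NEG a second time, in libraries that entered the rule as the reference of day 14 but not for that contrast. Over 15788 tested regions matched between the day 14 tables, 71.8% were called. Among constitutive regions 801 of 1623 (49.4%) were called, 548 higher in POS (33.8%, where 35.5% of all were) and 253 higher in NEG (15.6%, where 36.3% of all were). The share was 52.0% in regions even in POS against NEG only, close to that of constitutive regions, and 93.7% in those uneven. The direction split depended on scaling: with library totals alone 478 were higher in POS and 363 in NEG, with DESeq2 378 and 83, and with members chosen on TMM-scaled CPM 421 and 374. Most changes were small. Changes of 2-fold or more were called in 88 constitutive regions (5.42%), against 6.62% of regions even in POS against NEG only and 36.6% of all tested regions. The log2 fold change was within 0.75 in 85.8%, 82.5% and 51.7% in the same order. By these measures too, constitutive regions were close to the regions even in POS against NEG only.

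The acute DMSO ratio, which the rule used, is set beside the day 0 calls as a description. Of the 548 constitutive regions higher in POS at day 0, 454 had a column-sum ratio above 0 (median 0.31), and of the 253 higher in NEG, 3 did (median -0.59). Where no difference was called at day 0, 161 of 822 were above 0 (median -0.27). With the TMM scaling of the edgeR fit, 503, 11 and 307 were above 0, with medians of 0.49, -0.43 and -0.11. The same subpopulations were compared both times, in different libraries.

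The largest day 0 difference toward POS was at chr17:80489402-80490403, with 60.3 and 60.5 CPM in POS and 16.1 and 13.4 CPM in NEG (log2 fold change 2.01 ± 0.19 SE, edgeR adjusted p = 1.32e-24). Its acute DMSO ratio was 0.70, near the limit. At chr2:221712382-221713383 POS read 36.6 and 46.7 CPM and NEG 13.4 and 11.2 CPM, and at chr1:25894858-25895859 POS read 135 and 139 CPM and NEG 47.5 and 42.8 CPM. The first of these had an acute DMSO ratio of 0.37 and the second one of 0.70.

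Toward NEG, chr3:47830026-47831027 read 14.8 and 13.3 CPM in POS and 33.8 and 42.2 CPM in NEG (log2 fold change -1.40 ± 0.23 SE, edgeR adjusted p = 2.48e-09). The region chr1:98742540-98743541 read 9.94 and 12.1 CPM against 24.4 and 28.9 CPM, and chr9:113317713-113318714 read 12.2 and 12.7 CPM against 30.6 and 29.4 CPM. Values of POS and NEG that do not overlap were a condition for naming the day 0 regions.

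**Figure D5:**
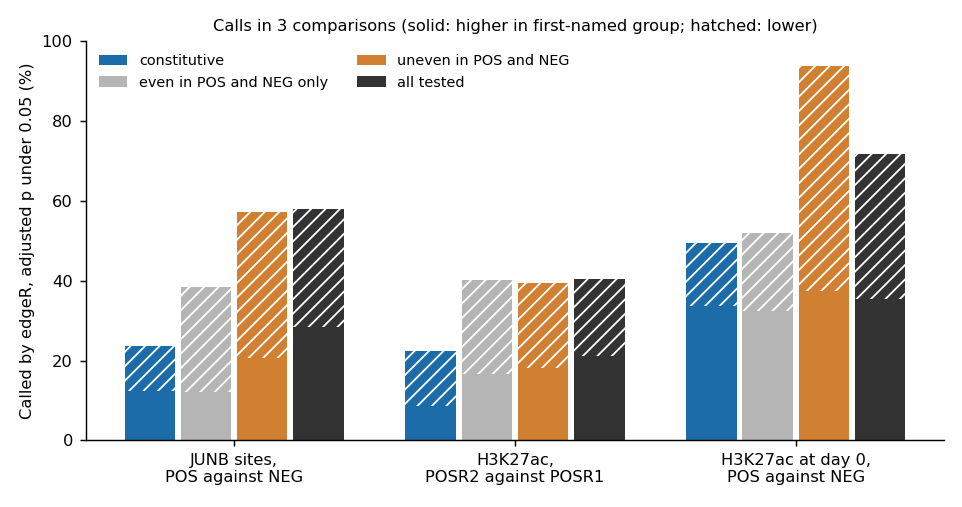
Percentage of tested features called by edgeR (adjusted p under 0.05) in 3 comparisons, of which the rule limits POSR2 against POSR1 in part, for constitutive regions, regions even or uneven in POS against NEG, and all features tested; solid bars are features higher in the first-named group and hatched bars those lower. Constitutive regions reach 23.6% for JUNB, 22.3% for POSR2 against POSR1 and 49.4% at day 0, where all tested features reach 57.9%, 40.5% and 71.8%.

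On the scale used here, fewer constitutive regions were even between POS and NEG at day 14. Column sums were taken over the 15794 regions matched between the day 14 tables, not over each whole table as in the rule. By the ratio of this CPM, 87.4% of the 1623 constitutive regions were within 0.75 at day 0 and 68.9% at day 14. The shares were 51.9% and 38.0% of all 15794 regions. The median ratio was 0.01 at day 0 and 0.32 at day 14 in constitutive regions, and -0.11 and -0.45 over all those regions. In 255 constitutive regions the ratio reached 2-fold at day 14, against 70 at day 0. The day 14 values come from 2 tables counted separately and no test was made of them. On the rule's scale, the median day 14 against day 0 ratio of constitutive regions was 0.02 in POS and 0.03 in NEG. The rise of the POS against NEG median at day 14 thus depends on the scale. The shares were not computed on the rule's scale.

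Spacing was compared over the listed regions. The nearest listed region was centred a median of 12763 bases away, against 11692 bases for regions even in POS against NEG only and 10555 bases for all listed regions. With regions joined when within 12500 bases of each other, 775 constitutive regions (47.5%) stood alone, against 42.5% and 40.0%, and 7.84% lay in clusters of 5 or more, against 11.3% and 11.3%. The nearest neighbour was itself constitutive for 106 of them (6.49%), against 3.39% for regions even in POS against NEG only and 2.63% for all listed regions. Constitutive regions are 2.86% of listed regions. Counting matched regions only, the nearest was constitutive for 24.4%, where constitutive regions are 16.8% of matched regions. The nearest listed region had an H3K27ac difference of 2-fold or more between POS and NEG for 42.1% of constitutive regions. The share was 46.3% for regions even in POS against NEG only and 57.4% for all listed regions. The difference in spacing was largest in weak regions. In the lowest of the 5 level groups of matched regions, 55.2% of constitutive regions stood alone, against 46.5% of regions even in POS against NEG only. In the highest group it was 39.3% against 38.0%, with median distances of 11316 and 11158 bases.

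Along the chromosomes, 1444 constitutive regions were flanked on both sides by other regions, and the rest formed 85 runs of 2, 5 runs of 3 and 1 run of 4. Consecutive constitutive regions on a chromosome were a median of 781400 bases apart. The run of 4 spanned 125381 bases, chr7:148637957-148763338, with regions starting at 148637957, 148659768, 148683925 and 148762337. Their levels were 65.4, 26.96, 20.1 and 37.3 CPM and they held 2, 2, 1 and 3 JUNB sites, the strongest at 4.75, 4.94, 6.22 and 3.19 CPM. JUNB in this run was thus below the median of constitutive regions, and the largest absolute ratios were 0.49 to 0.67.

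Chromosomes differed in the share of matched regions that were constitutive. It was highest on chromosome 14 (22.8%), followed by 13 (21.3%), X (20.7%) and 17 (20.2%), and lowest on 19 (9.80%), 18 (10.5%), 16 (11.5%) and 20 (12.5%). On chromosomes 19 and 16 the median POS against NEG ratio of matched regions was -1.02 and -0.79, which lies past the limit, and 35.3% and 40.8% of their matched regions were within it. The median was inside the limit on 18 (-0.44) and 20 (-0.33), where the share was also low. On X, where the share was high, it was -0.55.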

How the data were processed

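The authors deposited raw counts, whole numbers of reads per region and library, in 7 tables (6 for H3K27ac and 1 for JUNB), each with its own union of regions, 1001 or 201 bases wide. Build hg19, STAR 2.5.2b, cutadapt 1.12, MACS2, featureCounts and DESeq2 are listed in the submitters' processing notes, without settings. Columns headed with a different drug code were read as acute trametinib because their tables are named for it. The region lists give the deposited positions, which may count starts from 0 or from 1. Inputs (10 libraries) and the authors' DESeq2 tables were not used here. Reads without molecular identifiers are not independent molecules.

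Counts were tested with edgeR 4.0.16 in R 4.3.3 (quasi-likelihood test, TMM factors, low-count filter with a minimum of 10, Benjamini-Hochberg adjustment over all features tested). Standard errors are the log2 fold change divided by the square root of its F statistic. DESeq2 1.42.0, other scalings, no filter, a replicate block, left-out libraries and other settings of the rule were tried, and the test was tested on simulated data with 200 changed features. Regions were named as the 6 of highest level, the 6 most even at or above the median level, the 5 (JUNB) or 3 largest non-overlapping called changes in each direction (JUNB sites at or above the median level), the 3 nearest the limit on each side, the longest run, the 3 strongest without a JUNB site and the 3 with the most sites. The regions, lists and rules were chosen with earlier results of these data known. No hg19 genome or annotation was used, so regions carry no gene names or sequences.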

Additional observations from a re-analysis of the deposited data

How the results depend on the processing

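The number of constitutive regions, 1633, fell to 425 with a limit of 0.5 and rose to 3204 with a limit of 1. It was 1214 with an overlap of 80%, 1928 with a pseudocount of 2 CPM, 1648 with TMM-scaled CPM (1428 of them shared) and 1577 to 1650 with 1 library left out. The share with a JUNB site was 86.7% with the whole site inside the region and 91.8% with a limit of 0.5. The median JUNB level was 7.10 CPM with a limit of 1, 6.80 CPM with an overlap of 80% and 6.25 to 6.54 CPM with 1 JUNB library left out. The share whose nearest region is constitutive was 24.4% counting matched regions only (the set being 16.8% of these), 3.29% with a limit of 0.5 (the set being 0.745% of listed regions) and 10.0% with a limit of 1 (5.61%). DESeq2 called 234 JUNB sites in constitutive regions (12.4%, 39.6% over all sites) where edgeR called 443, and 461 regions at day 0 (28.4%, 56.0% over all) where edgeR called 801. With 1 library left out the share called was 16.9% to 19.7% for JUNB, 12.1% to 14.5% for POSR2 against POSR1 and 36.8% to 49.2% at day 0. All 203 values of named sites and regions under the alternatives kept their direction and their side of the threshold.

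Replicate numbers pair no samples by the labels, and deviations of same-numbered libraries correlated at 0.07 for JUNB, 0.09 for POSR2 and POSR1 and 0.10 at day 0. A replicate block gave 24.0% called for JUNB, 16.8% for POSR2 against POSR1 and 52.6% at day 0. Leaving libraries out of the rule, every alternative for the JUNB level, and the nearest neighbour under other limits were added after seeing the data. Lone libraries left in a group were assumed to vary like the other groups. At the JUNB depth, 16.3% of simulated 2-fold changes were recovered with 200 changed sites, far fewer than were called in these data.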
